A study of Drosophila melanogaster with 8 samples.

Results

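The 35 UDP-glycosyltransferase (Ugt) genes of Drosophila melanogaster listed in an RNA-sequencing table of the midgut were followed in flies fed quercetin (Que) and in flies fed its solvent, dimethyl sulfoxide (DMSO). Members were taken by name: every feature whose symbol begins with Ugt and a digit, which gave 35 of the 19299 features of the table, and they were grouped by the number after Ugt, which names the family. Each of the 8 samples held RNA from 200 pooled midguts of female flies labelled WT. The Que group (n = 4) received 10 µM Que from day 26 for 14 days, and the DMSO group (n = 4) received DMSO alone. The flies were 40 days old by the study's account and 40 to 50 days old by the sample labels. Both groups were kept on cornmeal-agar food. The labels do not say whether the 4 samples of a group came from separate cultures, so p-values measure the spread between these pools of midguts. The question asked of the data was which of these genes the aged midgut expressed, and whether their mRNA levels differed after feeding Que.

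UDP-glycosyltransferases are enzymes of the endoplasmic reticulum membrane that move a sugar from a UDP-sugar onto a hydroxyl or other group of a small, fat-soluble molecule. Insect enzymes mostly use UDP-glucose, whereas mammalian enzymes mostly use UDP-glucuronic acid. The product is more soluble in water and can be excreted, and the step is counted as phase II of detoxification. Flavonoids such as Que carry several hydroxyl groups that can accept a sugar, and in the silkworm an enzyme of this superfamily adds glucose to Que. Family numbers group the enzymes by protein sequence, the following letter names the subfamily and the last number the gene.

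Levels are given in RPKM, the reads per kilobase of exons and per 1000000 reads assigned to genes, so that genes of different length can be compared within a sample. Between 27253832 and 35619139 reads were assigned to genes in each sample, and 3 reads were set as the lowest count called detected, which is 0.0842 to 0.110 reads per 1000000 depending on the sample and allows for counting error alone. Of the 35 Ugt genes, 31 had a mean of at least 0.1 RPKM over the 8 samples and were tested among the 13249 features that passed this filter. The labelled tissue was checked by its markers. The enterocyte markers mex1, nub and Myo31DF stood between 39.7 and 179 RPKM in every sample, and the 4 muscle markers summed to between 592 and 927 RPKM. Of the 3 hemocyte markers, Hml and NimC1 were near 0 and srp stood at 4.21 to 7.42 RPKM. The 3 ovary markers summed to 4.14 RPKM in DMSO 1 and to between 0.554 and 1.34 RPKM in the other samples. The 6 Malpighian tubule markers summed to between 9.35 and 25.5 RPKM in the DMSO samples and between 9.95 and 17.3 RPKM in the Que samples, the 3 fat body markers to between 0.977 and 1.75 RPKM and between 0.741 and 1.40 RPKM. The defining tubule marker Uro was present in every sample, at 0.605 to 6.68 RPKM. All 6 tubule markers had negative estimates with Que, with a median log2 fold change of -0.57 and 0 of them at an unadjusted p under 0.05. Of the 5 enterocyte markers 3 had positive and 2 negative estimates, with log2 fold changes of 0.36 for betaTry (unadjusted p = 0.0424, adjusted p = 0.946, limma), 0.33 for alphaTry (unadjusted p = 0.0519), 0.09 for mex1, -0.09 for Myo31DF and -0.19 for nub. The progenitor markers esg and Dl stood at 14.4 to 23.2 and at 2.24 to 3.49 RPKM. Their log2 fold changes were 0.03 for esg (unadjusted p = 0.865, limma) and -0.26 for Dl (unadjusted p = 0.0979, limma). The part of these cell types in the Ugt levels was not tested. In pooled tissue, fewer cells of a type and less RNA per cell cannot be told apart.

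No Ugt gene differed between the groups past an adjusted p of 0.05 (limma on log2(RPKM + 0.1), two-sided, Benjamini-Hochberg over 13249 genes). The same held for all genes, of which 0 (0%) passed. At an unadjusted p under 0.05, 223 of all genes (1.68%) were higher with Que and 0 of the 31 Ugt genes were among them. In the other direction 256 of all genes (1.93%) were lower with Que, and 1 of the 31 Ugt genes was among them, Ugt303B1. The 4 Que values lay wholly above or wholly below the 4 DMSO values for 283 of all genes (2.14%) and for 0 of the 31 Ugt genes. Read against these shares of the whole table, counts of 0 and 1 among 31 genes set the Ugt genes apart in neither direction.

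The estimated changes were small and split between both directions. With Que, 16 Ugt genes had a positive and 15 a negative log2 fold change, with a median of 0.01, beside a median of -0.02 over all 13249 genes. The median size of the change, without its sign, was 0.09 on the log2 scale for the Ugt genes and 0.15 for all genes. The Ugt genes also had the higher median level, 7.75 against 4.59 RPKM. Sizes were not compared with genes of like level. The estimates ran from -0.71 for Ugt35B1, which rested on 2 to 35 reads per sample, to 0.25 for Ugt37D1. Among the 25 Ugt genes whose mean reached 1 RPKM they ran from -0.34 to 0.25. The 95% intervals are on the log2(RPKM + 0.1) scale, which narrows them for genes of low level. For 29 of the 31 genes the whole interval lay within 2-fold in either direction, and for 17 it lay within 1.5-fold. All 13 genes whose mean reached 10 RPKM were within the 2-fold bounds. The genes outside them were Ugt35B1, with an interval of -1.86 to 0.44, and Ugt307A1, with an interval of -1.12 to 0.82. With a pseudocount of 0.01, or with voom on the whole reads, 26 of the 31 intervals were within 2-fold, and Ugt35E2, Ugt37E1 and Ugt50B3, which had 4 to 26 reads in a sample, were also outside. For the 13 genes above 10 RPKM the count was 13 in both.

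**Figure D1:**
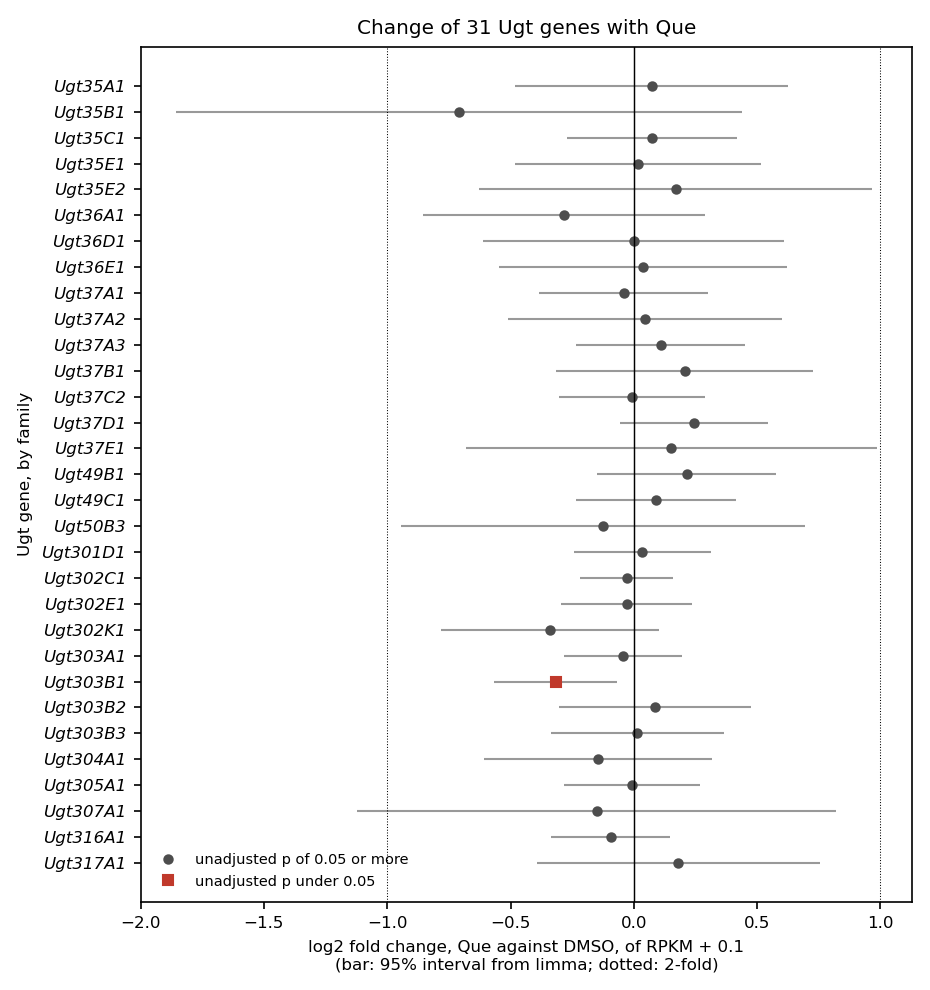
Estimated log2 fold change of RPKM + 0.1 with Que against DMSO (horizontal axis) for the 31 tested Ugt genes in family order (vertical axis), with 95% intervals from limma (n = 4 per group) and dotted lines at a 2-fold change. On this scale 29 of the 31 intervals lie between the dotted lines, and the interval of Ugt303B1, marked by a square, lies below 0.

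A few members carried most of the Ugt message. Summed over the 35 genes, the level was 552 ± 52.5 RPKM with DMSO and 566 ± 46.5 RPKM with Que (SD, n = 4 each). In reads, the Ugt genes took 862 to 1073 of each 1000000 assigned reads in the DMSO samples and 945 to 1118 in the Que samples. The 3 highest genes, Ugt302E1, Ugt49B1 and Ugt37A2, held 42.9% of the summed RPKM with DMSO and 44.2% with Que, and the 10 highest held 82.3% and 83.5%. In all, 25 members had a mean of at least 1 RPKM and 13 a mean of at least 10 RPKM. The median of the 31 tested Ugt genes was 7.75 RPKM, beside 4.59 RPKM for all tested genes. The order of the levels is not sharp: for each neighbouring pair among the 16 highest genes, the ranges over the 8 samples overlapped. Ugt37A2 nevertheless exceeded the next gene, Ugt37D1, in 8 of 8 samples.

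**Figure D2:**
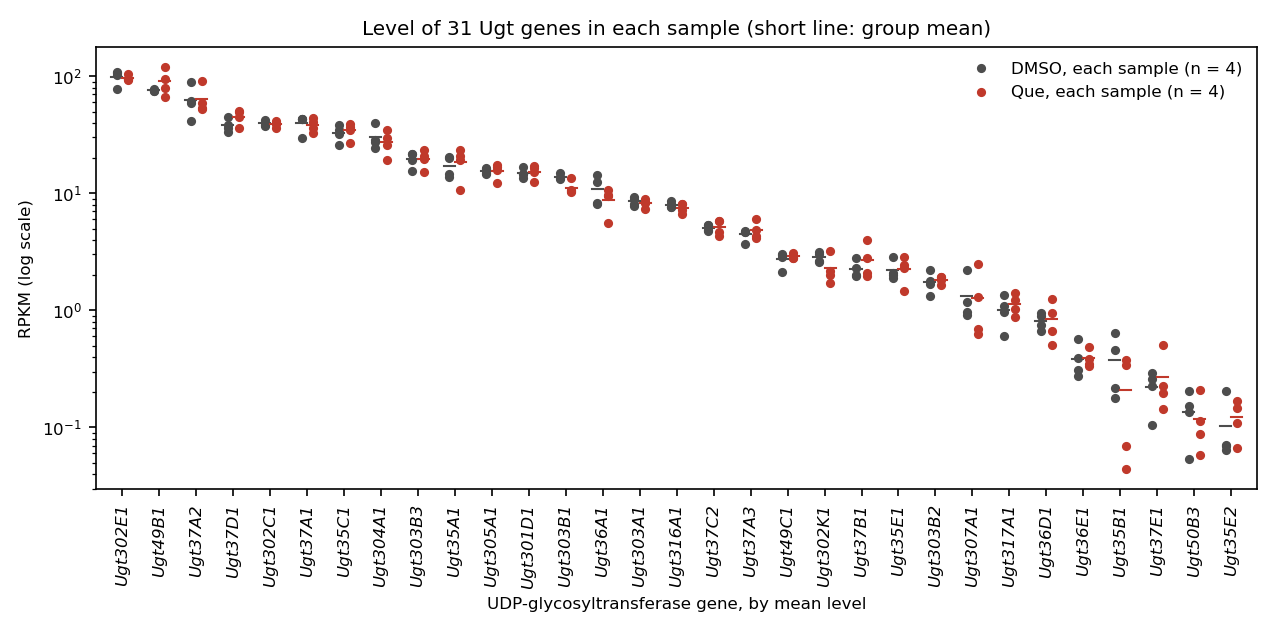
RPKM on a log axis (vertical) of the 31 tested Ugt genes in order of mean level (horizontal), with a point for each DMSO and Que sample (n = 4 each) and a short line at each group mean. Mean levels fall from 97.8 RPKM for Ugt302E1 to 0.112 RPKM for Ugt35E2, and the points of both groups overlap for every gene.

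By family, the summed level was largest for family 37 and family 302. The 8 genes of family 37 summed to 152 ± 29.0 RPKM with DMSO and 161 ± 26.1 RPKM with Que, and the 3 genes of family 302 to 142 ± 15.3 and 138 ± 3.84 RPKM. Family 49 followed with 78.8 ± 1.58 and 93.2 ± 22.8 RPKM. Family 35 stood at 52.5 ± 7.83 and 55.5 ± 10.6 RPKM, family 303 at 43.7 ± 3.25 and 41.1 ± 3.95 RPKM, and family 36 at 12.1 ± 3.06 and 10.1 ± 2.17 RPKM (SD, n = 4 each). Levels within each of the 6 families with several members were uneven, from 10.96-fold between the highest and the lowest gene of family 303 upward. The other 7 families had a single member, among which only Ugt304A1, Ugt305A1 and Ugt301D1 exceeded 10 RPKM. No test was made on these sums.

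**Figure D3:**
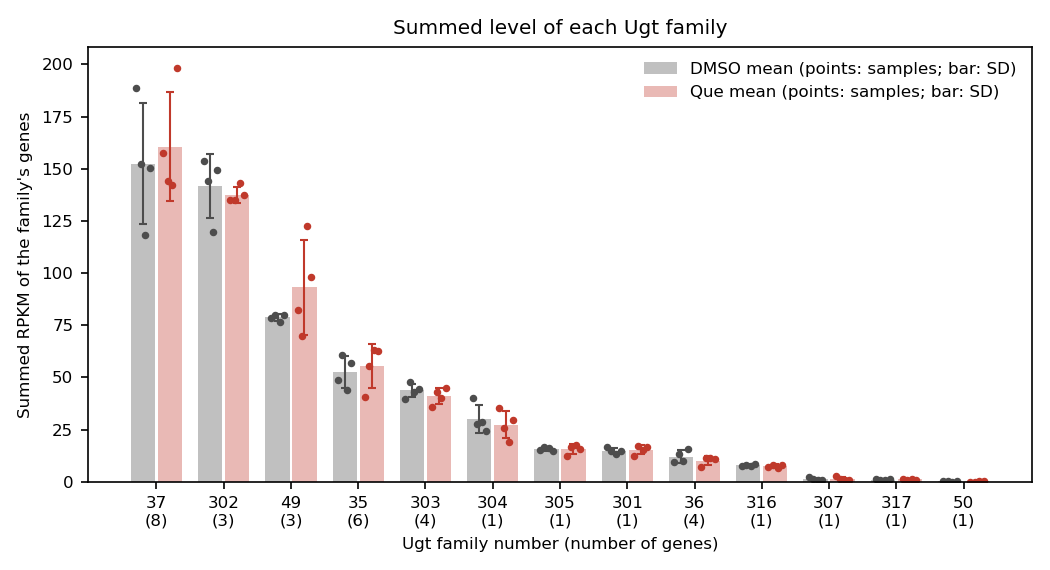
Summed RPKM (vertical axis, from 0) of each Ugt family (horizontal axis, with its number of genes in brackets), as the mean of 4 DMSO and 4 Que samples with SD bars and a point for each sample. Families 37 and 302 have the tallest bars in both groups, and the Que samples of family 49 spread from 69.9 to 123 RPKM while its DMSO samples lie between 76.7 and 80.1 RPKM.

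Ugt302E1 (formerly Ugt86Dc, Dmel_CG4739; chromosome 3R, 11154626 to 11156513, plus strand, 2 exon blocks) was the most highly expressed member. Its RPKM was 108, 103, 78.2 and 106 in DMSO samples 1 to 4 and 94.6, 93.1, 104 and 94.0 in Que samples 1 to 4. The groups overlapped, DMSO 3 was the lowest of the 8 samples, and the log2 fold change was -0.03 (SE 0.12, unadjusted p = 0.808, limma). Its neighbour Ugt302C1 (formerly Ugt86Da, Dmel_CG18578; 3R, 11157098 to 11159744, plus strand, 3 exon blocks) was steadier. It stood at 42.7, 37.8, 38.7 and 39.7 RPKM with DMSO and at 38.7, 39.7, 35.9 and 41.4 RPKM with Que. Its log2 fold change of -0.03 had a 95% interval of -0.22 to 0.16, the narrowest of the 5 highest members, and the groups overlapped throughout. The third gene of the family, Ugt302K1, was far lower, at 2.84 ± 0.286 RPKM with DMSO and 2.28 ± 0.669 RPKM with Que (SD, n = 4 each). Its log2 fold change of -0.34 (SE 0.20, unadjusted p = 0.115, limma) turned on Que 3, the highest of the 8 samples at 3.24 RPKM. Without Que 3 it was -0.52 with an unadjusted p of 0.00737 and an adjusted p of 1.

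Ugt49B1 (Dmel_CG4302; 2R, 21212880 to 21214972, minus strand, 4 exon blocks) ranked next to Ugt302E1 and had an unequal spread in the groups. The DMSO samples were close together, at 75.4, 77.2, 74.6 and 77.0 RPKM. The Que samples ranged more widely, at 79.4, 67.1, 120 and 95.1 RPKM, with 3 of 4 above every DMSO sample and Que 2 below every one. The log2 fold change was 0.21 with a 95% interval of -0.15 to 0.58 (unadjusted p = 0.214, limma, and p = 0.314, exact two-sided permutation test). It depended on single samples: without Que 2 it was 0.35 (unadjusted p = 0.0346, adjusted p = 0.54), and without Que 3 it was 0.07 (unadjusted p = 0.578). Ugt49B1 shares 90 of its 1754 exonic bases with CG44245, which has 2299 bases, on the opposite strand. CG44245 had its highest count, 4294 reads, in Que 3 as well, against 1626 to 3063 in the other samples. Ugt49B1 had 5725 reads in Que 3, against 4056 to 5275 in the other samples. The strand setting of the counting is not given in the sources used here, so reads in the shared bases cannot be assigned to either gene. Next to it on 2R, Ugt49C1 stood at 2.74 ± 0.425 RPKM with DMSO and 2.90 ± 0.130 RPKM with Que. The last gene of the family, Ugt49B2 on 3R, had 0 to 2 reads in a sample.

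Family 37 holds 3 of the 6 highest members. Ugt37A2 (Dmel_CG5724; 3R, 12739642 to 12741417, plus strand, 2 exon blocks) varied most among the 5 highest genes, at 88.8, 59.6, 41.1 and 61.3 RPKM with DMSO and at 59.2, 53.2, 52.7 and 91.1 RPKM with Que. Each group had a single high sample, DMSO 1 and Que 4, and the log2 fold change of 0.04 changed sign without DMSO 3 or without Que 4 (-0.14 in both cases). Its coefficient of variation was 31.3% with DMSO and 28.5% with Que, against 5.40% and 5.93% for Ugt302C1. Its neighbour Ugt37A3, which is transcribed towards it, also had its highest level in Que 4, at 6.05 RPKM, and its lowest in DMSO 3, at 3.70 RPKM.

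Ugt37D1 (formerly Ugt36Bc, Dmel_CG17932; 2L, 16799025 to 16801584, plus strand, 3 exon blocks) had the largest positive estimate of the 31 genes. Its RPKM was 44.6, 38.1, 36.1 and 33.2 in DMSO samples 1 to 4 and 49.3, 36.2, 44.8 and 50.3 in Que samples 1 to 4. Que 1, 3 and 4 exceeded every DMSO sample, whereas Que 2 lay near the DMSO 3 level. The log2 fold change was 0.25 with a 95% interval of -0.06 to 0.55 (unadjusted p = 0.0978, limma, and p = 0.114, exact two-sided permutation test). Without DMSO 1 the unadjusted p was 0.0402, and without Que 2 it was 0.0173, with adjusted p-values of 0.925 and 0.54. Ugt37A1 (Dmel_CG11012; 2L, 20372409 to 20374104, minus strand, 2 exon blocks) did not share this estimate. It stood at 42.9, 43.1, 29.5 and 43.5 RPKM with DMSO and at 36.1, 43.9, 32.6 and 41.0 RPKM with Que, with DMSO 3 lowest, and its log2 fold change was -0.04 (SE 0.15, unadjusted p = 0.796, limma). The remaining members of the family were lower. Their means in the DMSO and Que groups were 5.10 and 5.11 RPKM for Ugt37C2, 4.46 and 4.85 RPKM for Ugt37A3, 2.26 and 2.70 RPKM for Ugt37B1, and 0.221 and 0.269 RPKM for Ugt37E1. Ugt37C1 had 0 to 2 reads in a sample. Of the 7 tested genes of family 37, 5 had a positive and 2 a negative estimate, none with an unadjusted p under 0.05.

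In family 35, Ugt35C1 and Ugt35A1 made up nearly the whole level. Ugt35C1 (formerly Ugt86Dd, Dmel_CG6633; 3R, 11126597 to 11128328, minus strand, 2 exon blocks) is known in Drosophila for its role in larval resistance to nicotine. It stood at 32.1, 38.4, 25.9 and 34.5 RPKM with DMSO and at 27.1, 34.6, 36.9 and 39.2 RPKM with Que, with a log2 fold change of 0.07 (SE 0.15, unadjusted p = 0.638, limma). The values of both groups were interleaved. Ugt35A1 (formerly Ugt35a, Dmel_CG6644; 3R, 11170817 to 11172664, minus strand, 2 exon blocks) stood at 13.7, 20.2, 14.7 and 19.97 RPKM with DMSO and at 10.7, 19.3, 23.3 and 20.7 RPKM with Que. Its log2 fold change was 0.07 with a wide 95% interval of -0.48 to 0.63, and Que 1 was the lowest and Que 3 the highest of the 8 samples. Ugt35E1 was lower, at 2.20 ± 0.431 RPKM with DMSO and 2.27 ± 0.588 RPKM with Que. Ugt35B1 (formerly Ugt35b), described in the fly antenna, had 26, 13, 10 and 35 reads with DMSO and 18, 4, 2 and 20 reads with Que. The low Que 2 and Que 3 counts lay below every other sample, and the fitted change of -0.71 (SE 0.51, unadjusted p = 0.196, limma) rested on these few reads. Ugt35E2 had 4 to 12 reads in a sample. Ugt35D1 was at 0 reads in all samples but Que 1, which had 2, and both groups were under the detection limit of 3 reads per sample.

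In family 303, Ugt303B1 (Dmel_CG16732; 3R, 23534900 to 23536710, minus strand, 2 exon blocks) was the member with an unadjusted p under 0.05. Its RPKM was 13.4, 14.9, 13.9 and 13.4 in DMSO samples 1 to 4 and 10.5, 13.4, 10.2 and 10.7 in Que samples 1 to 4. Que 1, 3 and 4 were below every DMSO sample, and Que 2 overlapped the DMSO range at its lower end. The log2 fold change was -0.32 (SE 0.11, 95% interval -0.57 to -0.07, unadjusted p = 0.0181, adjusted p = 0.946, limma), that is a level 0.803 times that of DMSO. The exact two-sided permutation test gave p = 0.0571, where the smallest p that 70 arrangements allow is 0.0286. The estimate was negative with each sample left out, from -0.28 to -0.41, and its unadjusted p was 0.0516 without DMSO 2 and 0.00173 without Que 2. Its 2 neighbours in the same cluster had estimates of the other sign, 0.01 (SE 0.16) for Ugt303B3 and 0.09 (SE 0.17) for Ugt303B2. Each was smaller than its standard error, so these signs carry no weight. Ugt303B3 (Dmel_CG10170; 3R, 23532945 to 23534767, minus strand, 2 exon blocks) stood at 15.4, 21.5, 19.4 and 21.5 RPKM with DMSO and at 15.3, 19.6, 20.7 and 23.3 RPKM with Que, with a log2 fold change of 0.01 (SE 0.16, unadjusted p = 0.932, limma). DMSO 1 and Que 1 were the low samples of their groups. Ugt303B2 stood at 1.74 ± 0.359 RPKM with DMSO and 1.83 ± 0.135 RPKM with Que, and Ugt303A1, the family's gene in the large 3R cluster, at 8.56 ± 0.697 and 8.30 ± 0.671 RPKM (SD, n = 4 each).

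Ugt304A1 (formerly Ugt86Dj, Dmel_CG15902; 3R, 11173441 to 11175408, minus strand, 2 exon blocks) is the single member of its family and the last of the 10 highest genes to be described. It stood at 40.0, 27.5, 28.4 and 24.5 RPKM with DMSO and at 35.1, 25.8, 19.2 and 29.5 RPKM with Que. DMSO 1 and Que 1 were the highest samples of their groups. The log2 fold change of -0.14 (SE 0.21, unadjusted p = 0.5, limma) was 0.00 without DMSO 1 and 0.01 without Que 3. Among the other single-member families, Ugt305A1 had means of 15.5 RPKM with DMSO and 15.6 RPKM with Que, Ugt301D1 of 14.8 and 15.3 RPKM, Ugt316A1 of 7.99 and 7.51 RPKM, and Ugt317A1 (formerly Ugt58Fa) of 1.004 and 1.127 RPKM. Ugt50B3, the member with the longest exonic length, 3316 bases in 9 exon blocks, had 6 to 22 reads in a sample. Ugt307A1 ranged widely within both groups, at 2.20, 1.19, 0.911 and 0.969 RPKM with DMSO and at 2.501, 1.30, 0.631 and 0.690 RPKM with Que.

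Family 36 was the lowest of the families with several members. Ugt36A1 (also called Dot, Dmel_CG2788; 2L, 3619097 to 3621573, plus strand, 3 exon blocks), whose regulatory region is used in Drosophila to mark pericardial cells, held most of its level. It stood at 8.07, 12.4, 8.25 and 14.5 RPKM with DMSO and at 5.54, 10.6, 9.43 and 9.67 RPKM with Que. The groups overlapped, with DMSO 4 highest and Que 1 lowest, and the log2 fold change was -0.28 (SE 0.25, unadjusted p = 0.291, limma). The summed Malpighian tubule markers stood at 9.35, 12.9, 17.6 and 25.5 RPKM in DMSO samples 1 to 4 and at 9.95, 9.98, 17.3 and 14.7 RPKM in Que samples 1 to 4. They shared with Ugt36A1 the high DMSO 4 and the low DMSO 1 and Que 1 within each group, but not the order of the remaining samples. Uro alone stood at 1.53, 2.42, 1.61 and 6.68 RPKM with DMSO, the same order as Ugt36A1. Its Que values of 0.605, 0.644, 2.97 and 3.36 RPKM had another order, and the other tubule markers did not have the DMSO order of Ugt36A1. The part of the tubule in the Ugt36A1 values was not tested. Ugt36A1 shares 400 exonic bases with CG15418 on the opposite strand, which had only 6 to 37 reads in a sample against 401 to 1090 for Ugt36A1. Ugt36D1 stood at 0.811 and 0.846 RPKM in the DMSO and Que groups. Ugt36E1 had 17 to 36 reads in a sample and shares 48 exonic bases with CG17597 on the opposite strand, which had 17060 to 22300 reads, so its own level is uncertain. Ugt36F1 had 1 to 7 reads in a sample. Of the other families, Ugt37A1 and Ugt307A1 also share exonic bases with features on the opposite strand, 59 and 11 of them.

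Most Ugt genes lay next to another. On the Release 6 plus ISO1 MT assembly, 17 members were on 3R, 11 on 2L, 5 on 2R and 2 on 3L. Joining members no more than 30 kb apart gave 18 loci, of which 6 held at least 2 members and 23 members together, while 12 members stood alone. The largest locus, on 3R from 11126597 to 11177910, held 10 members of families 35, 302, 303 and 304 in 51.3 kb, with 3 other features between them. It supplied 42.2% of the summed Ugt RPKM with DMSO and 40.5% with Que. Within it the mean level differed 870-fold between Ugt302E1 at 97.8 RPKM and Ugt35E2 at 0.112 RPKM. Low and high members were interspersed along the locus, and the low genes Ugt35E1, Ugt35E2 and Ugt35B1 lay in a row between the high genes Ugt302C1 and Ugt35A1. The smaller clusters were likewise uneven. The level differed 170-fold within the Ugt37C2, Ugt37E1 and Ugt37D1 cluster of 7.37 kb on 2L, where the low gene is the middle member. It differed 29.5-fold between Ugt49B1 and Ugt49C1, 13.6-fold between Ugt37A2 and Ugt37A3, and 10.96-fold within the Ugt303B3, Ugt303B1 and Ugt303B2 cluster. Reads that match several close copies may have been dropped or shared, since their treatment is not given in the sources used here, and this limits the comparison of levels between neighbours.

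**Figure D4:**
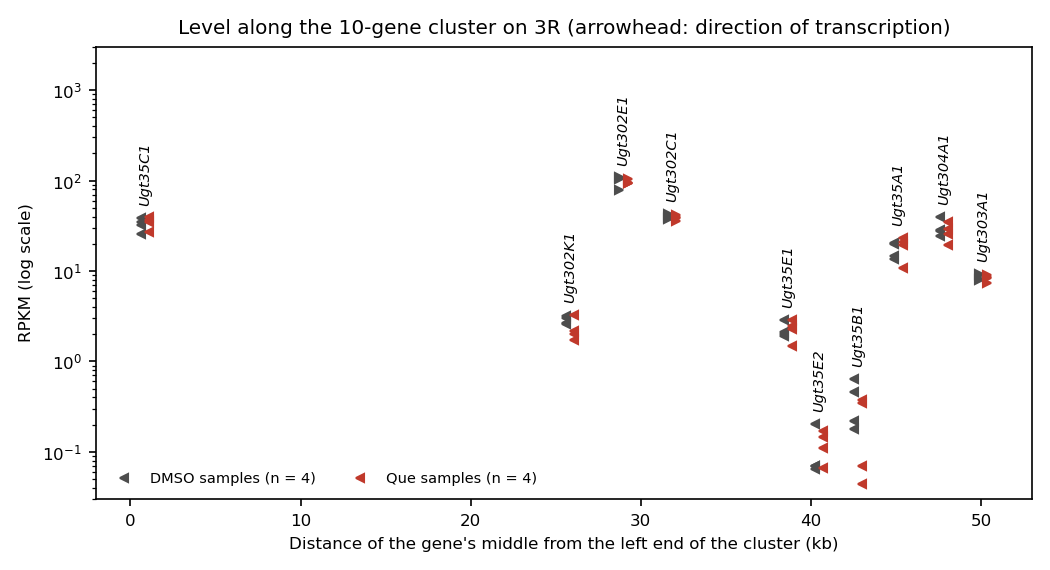
RPKM on a log axis (vertical) of the 10 Ugt genes of the large 3R locus against the distance of each gene's middle from the left end of the locus in kb (horizontal), with an arrowhead for each DMSO and Que sample (n = 4 each) pointing in the direction of transcription. The mean levels span 870-fold, and the points of both groups overlap at every gene.

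The samples of a group did not rank alike for all members, but some leaned 1 way. DMSO 3 was the lowest DMSO sample for 13 of the 31 tested Ugt genes and the highest for 2. Its median deviation from each gene's DMSO mean was -0.11 on the log2 scale. DMSO 1 was the highest for 12 and the lowest for 4. In the Que group, Que 4 was the highest for 13 and the lowest for 0, with a median deviation of 0.12 from each gene's Que mean. These ranks were taken over the Ugt genes only. Whether the samples lean the same way over all genes was not tested. DMSO 1 and Que 1 stood together for several tested genes. Both were the highest samples of their groups for Ugt304A1, Ugt307A1, Ugt317A1 and Ugt37E1. They were the lowest for Ugt36A1, Ugt35A1, Ugt303B3 and Ugt302K1. Among the 3 enteroendocrine markers, Tk was also highest in these samples, at 882 RPKM in DMSO 1 and 1001.1 RPKM in Que 1, against 609 to 743 RPKM in the others. The other 2 did not follow it, since pros was highest in DMSO 2 and Que 2 and NPF in DMSO 4 and Que 3. Whether the cell makeup of the pools bears on these Ugt values was not tested.

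**Figure D5:**
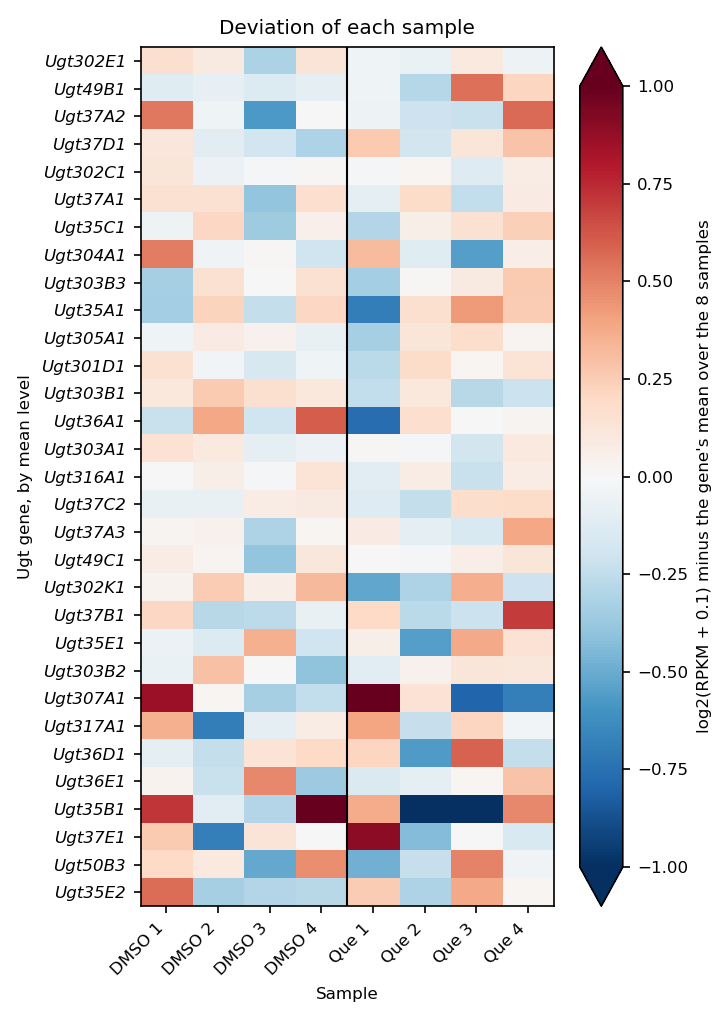
Deviation of each sample (horizontal axis, 4 DMSO and 4 Que) from the mean log2(RPKM + 0.1) of each tested Ugt gene over the 8 samples (vertical axis, in order of mean level), red above and blue below, with the color scale ending at 1 log2 unit either way. Que 4 is the highest Que sample for 13 genes, and the strongest colors are at genes with few reads such as Ugt35B1.

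Genes around the conjugation step passed the test in neither direction. All 11 genes chosen for the supply of UDP-sugars were tested, 4 with a positive and 7 with a negative estimate, from -0.18 to 0.11 on the log2 scale with a median of -0.01, and 0 of them had an unadjusted p under 0.05. Among them UGP, which makes UDP-glucose, stood at 5.43 ± 0.4998 RPKM with DMSO and 5.76 ± 0.751 RPKM with Que. The dehydrogenase sgl, which turns UDP-glucose into UDP-glucuronic acid, stood at 117 ± 13.1 and 104 ± 16.4 RPKM (SD, n = 4 each). Of 6 ABC transporters chosen as candidates for exporting conjugates, 5 were tested and 0 had an unadjusted p under 0.05, with estimates from -0.24 to 0.29. MRP, whose mammalian counterparts carry conjugated compounds out of cells, stood at 34.0 ± 3.62 RPKM with DMSO and 32.3 ± 5.75 RPKM with Que. Of 8 regulators of the response to foreign compounds, 7 were tested and 0 had an unadjusted p under 0.05, with estimates from -0.25 to 0.14. The lowest estimate belonged to the nuclear receptor Hr96, at 44.8 ± 4.85 and 37.7 ± 5.92 RPKM (unadjusted p = 0.0783, adjusted p = 0.946, limma). The transcription factor cnc, the fly counterpart of mammalian Nrf2, stood at 43.6 ± 4.32 and 38.7 ± 9.61 RPKM, and its inhibitor Keap1 at 5.30 ± 0.593 and 5.62 ± 0.413 RPKM. Sulfotransferases conjugate phenols by another route. The 3 tested, St1, St3 and St4, had estimates of 0.12, 0.16 and -0.25, and 0 of them an unadjusted p under 0.05. Only St3 was above 1 RPKM, at 13.7 ± 1.54 RPKM with DMSO and 15.4 ± 2.85 RPKM with Que. All tests here are two-sided, from limma over the 13249 genes.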

How the data were processed

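RNA of 200 midguts per sample was sequenced by the authors from a stranded mRNA library. Per the labels and the study's methods, reads were trimmed with Trimmomatic 0.36, collapsed by molecular tag, aligned with STAR 2.5.3a and counted per gene with featureCounts; the annotation release, strand setting and treatment of multiply aligned reads are not given in the sources used here. The authors deposited RPKM values and exonic lengths. The authors' RPKM times length in kilobases summed to 1000000 per sample, and whole reads (within 0.01) were recovered for 100% of values. Depth was 27253832 to 35619139 assigned reads.

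Columns were assigned to the DMSO and Que groups by the sample labels. All 35 members matched RefSeq genes by symbol with the same start and end (Release 6 plus ISO1 MT), and of all features matched by symbol 99.9% had the same span. Values were compared as log2(RPKM + 0.1), mean at least 0.1 RPKM, with limma 3.58.1 (trended empirical Bayes, Benjamini-Hochberg over 13249 genes) in R 4.3.3. A fold change on this scale understates the change of low genes. For each member the 8 log2 values were also permuted between the groups in every possible way (two-sided). Other steps ran in Python 3.11.15 with SciPy 1.17.1 for the interval limits, pandas 2.3.3 and NumPy 2.4.6 for tables and the exact tests, and matplotlib 3.10.9 for plots. The fit was tested on simulated reads, with 2-fold changes placed only in genes of many reads. The spread of the simulated reads was set by choice and not estimated from these samples. That test does not cover smaller changes, genes of few reads or a larger spread.

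Values in every sample were given for the 10 members of highest mean RPKM, those with an unadjusted p under 0.05 and any whose groups did not overlap, and the others by their means, ranges or reads; Ugt307A1, Ugt36A1 and Ugt35B1 were added after their values were seen. Members and lists were chosen with earlier results of these data known. Results were recomputed with a pseudocount of 1 or 0.01, a mean of at least 1 RPKM or no filter, median-of-ratios scaling, no trend, the replicate block, voom on the whole reads, removal of the trend on gene length, and each sample left out. Protein, promoter and GC content were not analysed here.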

Additional observations from a re-analysis of the deposited data

Results flagged for a closer look

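A sample stood apart from the other 3 of its group in 8 of 76 groups of 4 values looked at, which concern 6 genes (Ugt302E1 in both groups) and 1 family sum. Chance gives about 1 in 20, or 3.8 of 76, and the genes are not independent of one another. The measure is the gap to the nearest sample divided by the group's range. DMSO 3 stood low for Ugt302E1 (gap 0.83 of the range; 78.2 RPKM against 103 to 108), for Ugt37A1 (0.959; 29.5 RPKM against 42.9 to 43.5) and for Ugt37A3 (0.914; 3.70 RPKM against 4.67 to 4.77). Que 3 stood high for Ugt302E1 (0.857; 104 RPKM against 93.1 to 94.6). Que 4 stood high for Ugt37A2 (0.83; 91.1 RPKM against 52.7 to 59.2). Que 2 stood high for Ugt303B1 (0.844; 13.4 RPKM against 10.2 to 10.7). DMSO 1 stood high for Ugt35E2 (0.959; 0.205 RPKM against 0.0646 to 0.0703), which rested on 4 to 12 reads. Que 1 stood low for the summed level of family 36 (0.853; 6.88 RPKM against 10.9 to 11.5). The causes were not tested.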

How the results depend on the processing

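The count of Ugt genes past an adjusted p of 0.05 was 0 under each of the 17 alternatives, with no adjusted p below 0.54, while over all genes it was 0 to 3 (0 with voom). The median log2 fold change of the Ugt genes ran from -0.02 to 0.04. The count at an unadjusted p under 0.05 was 1 under the alternatives of pseudocount, filter, scaling, trend, voom and gene length, and 0 to 3 with a sample left out. It was 0 without DMSO 2, and 2 without DMSO 1 (Ugt303B1 and Ugt37D1) or Que 3 (Ugt303B1 and Ugt302K1). It was 3 without Que 2 (Ugt303B1, Ugt37D1 and Ugt49B1), and the cause was not tested. The share of all genes with such a p moved as well, from 3.62% in the main fit to 9.02% without Que 2. It was 4.48% without DMSO 1, 3.3% without DMSO 2 and 3.55% without Que 3. With the replicate number as a block the Ugt count was 2 (Ugt303B1 and Ugt35B1, unadjusted p of 0.00757 and 0.0431, adjusted p of 0.589 for both), while the count over all genes went from 479 to 1117 (8.43%). The block lowered the standard error of most Ugt genes, from 0.430 to 0.191 for Ugt307A1 and from 0.156 to 0.0746 for Ugt303B3. It raised that of Ugt301D1, Ugt302E1, Ugt35E2, Ugt36E1 and Ugt50B3. The standard errors, intervals and p-values given above for single genes are from the fit without the block. The deviations of samples numbered 1 to 4 correlated with their namesakes at 0.227, 0.119, 0.0127 and 0.0292. All 4 were positive, 2 of the 4 were below 0.1, and the value for DMSO 1 and Que 1 was the highest of all 16 pairs. Pairs of unlike number ran from -0.195 to 0.148. The labels name nothing that a number stands for, so the block was kept as an alternative only. Whether some samples shared a factor was not tested. Of 187 log2 fold changes of the 11 genes followed, 19 changed sign, each with a sample left out and none past the threshold. With a sample left out they ran from -0.14 to 0.018 for Ugt302E1, from -0.14 to 0.23 for Ugt37A2, from -0.059 to 0.0092 for Ugt302C1, from -0.18 to 0.035 for Ugt37A1, from -0.033 to 0.19 for Ugt35C1, from -0.27 to 0.015 for Ugt304A1, from -0.094 to 0.13 for Ugt303B3 and from -0.057 to 0.32 for Ugt35A1. Those of Ugt303B1, Ugt37D1 and Ugt49B1 kept their sign throughout. With a sample left out, the list medians ran from -0.03 to 0.01 for UDP-sugar supply, from -0.16 to 0.04 for conjugate export, from -0.16 to 0.06 for regulators and from -0.15 to 0.20 for the 3 sulfotransferases, so their signs carry no weight. The 4 Ugt genes under the filter had at most 7 reads in a sample, and a difference between the groups was not detectable at this depth.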
